A study of Mus musculus with 9 samples.

Results

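The collagen genes were taken as the 44 symbols, of 24421 in each library, made of Col, a number, the letter a and a further number. This rule reads names alone, but it was chosen with earlier results of these data known. By the structure their proteins build they fall into 11 fibrillar, 6 basement membrane, 6 beaded and 9 FACIT genes (fibril-associated collagens with interrupted triple helices), the anchoring fibril gene Col7a1, 3 short-chain network, 2 multiplexin, 4 transmembrane and 2 other genes. Their levels were read in 9 libraries, each from 1 tumor of the liver of a C57BL/6 mouse that was 11 weeks old. There were 3 S7HP+Snail tumors (13, 14 and 15), 3 S7HP tumors (9, 11 and 12) and 3 LHP tumors (2, 3 and 6). Per the file headers, S7HP stands with the name Smad7 and LHP with the name Luc, and Snail is added to the S7HP combination in the first of these groups. The letters H and P, which all 3 groups share, are not spelled out in the labels, and neither do they give the vector, its promoter, the cells that received it or the mouse of each tumor. P-values therefore measure the spread between these tumors.

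Collagen chains wind into helical trimers that are secreted and built into the extracellular matrix. Fibrillar collagens make the cables that give a tissue tensile strength, type IV collagen makes the sheet under epithelia and endothelia, and FACIT and beaded collagens attach fibrils to each other and to cells. In the injured liver, activated stellate cells and portal fibroblasts are the main source of fibrillar collagen. TGF-β is a strong inducer of these genes in such cells, acting through Smad2 and Smad3, and Smad7 blocks the TGF-β receptor. Snail, the product of Snai1, is a zinc finger repressor of epithelial genes that TGF-β itself induces.

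Values are log2 of a quantile-normalized count plus 1. The method reads the 3′ end of each transcript, so levels need no correction for length. Whether the 3′ ends of different genes are read equally well was not tested. Comparisons between genes are therefore of counts. All libraries were forced to the same distribution, with 19910396 to 19911234 normalized counts each, so the depth of a library is not preserved. The third lowest value above 0 in a library lay between 1.22 and 2.64, and levels near or under it are called near the reading limit here. On the second principal component, S7HP+Snail tumor 14 lay at 118.1, away from its group's tumors 13 and 15 at 31.3 and 25.9. Collagen calls that changed when it was left out are named, but medians are given only with it. The symbol Smad7 was at 7.31, 6.77 and 8.0 in S7HP+Snail tumors, at 6.46, 6.81 and 6.28 in S7HP tumors and at 10.23, 10.50 and 9.49 in LHP tumors. Snai1 was at 8.53, 7.31 and 8.47 in S7HP+Snail tumors, at 6.17, 6.34 and 6.92 in S7HP tumors and at 9.93, 11.16 and 10.99 in LHP tumors. A 3′ tag need not fall in a construct's own RNA, so these levels do not check whether a construct was present.

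The first question was how collagen expression differs between S7HP and LHP tumors. It was lower in S7HP tumors for most of the collagens that could be tested. Of the 29 collagens that reached a log2 value of 4 in at least 3 libraries, and so were tested, 20 fell in S7HP tumors (limma, Benjamini-Hochberg adjusted p under 0.05 over 14215 genes), where 9.54% of all genes tested fell and 19.0% were called in either direction. None of the 29 rose by limma, also at an unadjusted p under 0.05, where 9.47% of all genes tested rose by the adjusted threshold. The median difference over the 28 collagens above 0 in both groups was -2.70 on the log2 scale, against 0.02 over all genes tested. In 23 of the 29, every S7HP tumor lay below every LHP tumor, which held for 21.3% of all genes tested. A fall in such bulk tumors can be fewer collagen-producing cells or less RNA in each, which cannot be told apart here. Of the 20 calls, 14 held under all 15 alternative analyses, and the other 6 are named with their classes.

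**Figure D1:**
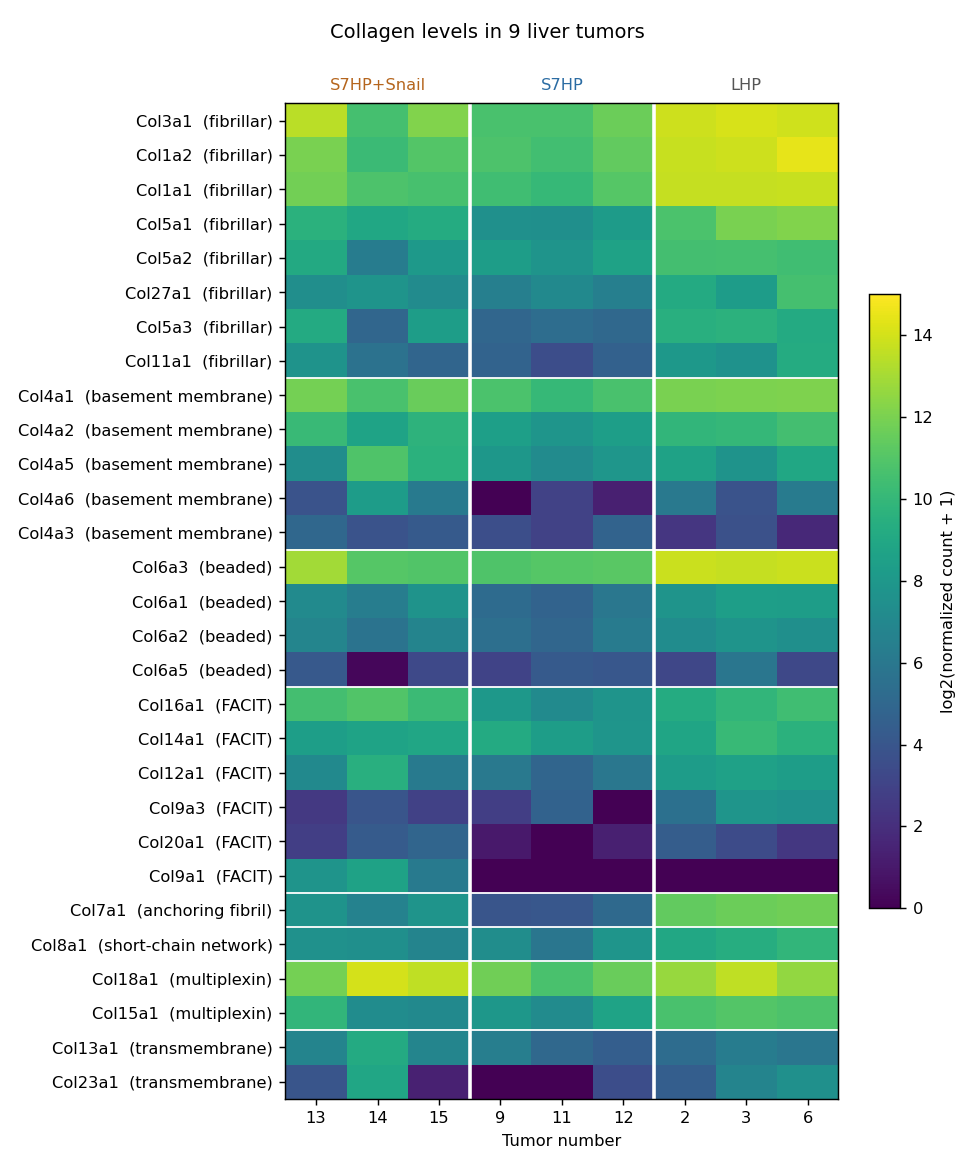
Levels of the 29 collagens tested in each tumor, as log2(normalized count + 1), with genes in rows by class and tumors in columns by group. The S7HP columns are darker than the LHP columns in most rows, and Col9a1 is above 0 in the 3 S7HP+Snail tumors alone.

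The second question was what Snail added to S7HP changes. Of the 29 collagens, 3 rose in S7HP+Snail tumors against S7HP tumors, namely Col16a1, Col9a1 and Col7a1, where 1.01% of all genes tested rose and 2.30% were called in either direction. None of the 29 fell by limma, also at an unadjusted p under 0.05, where 1.29% of all genes tested fell by the adjusted threshold. Col9a1 reached the filter only through the S7HP+Snail tumors and had to differ, so the count that can be read against this background is 2 of the other 28. At an unadjusted p under 0.05, 14 of the 29 were higher, Col9a1 among them, where 2533 of the 14215 genes tested differed in either direction. The median difference over the 28 collagens above 0 in both groups was 1.17, against -0.02 over all genes tested, and in 13 of 29, again with Col9a1, every S7HP+Snail tumor lay above every S7HP tumor, which held for 9.53% of all genes tested. Without S7HP+Snail tumor 14, 6 collagens rose, with Col4a2, Col5a3 and Col6a1 added. Without S7HP+Snail tumor 13, 6 also rose, with Col18a1, Col4a5 and Col4a6 added.

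Set against LHP tumors, S7HP+Snail tumors were lower for 8 of the 29 collagens, where 3.87% of all genes tested fell and 7.22% were called in either direction. These were Col7a1, Col1a1, Col1a2, Col5a1, Col5a2, Col6a3, Col8a1 and Col15a1. Of the 29, only Col9a1 was called higher, which its entry to the test fixed, where 3.35% of all genes tested rose. The median difference was -1.52 over the 28 collagens above 0 in both groups. Of the 8 lower calls, those of Col7a1, Col1a1, Col1a2 and Col5a1 held under all 15 alternatives. Col5a2, Col6a3, Col8a1 and Col15a1 each lost the call when any LHP tumor was left out (adjusted p of up to 0.0968, 0.0865, 0.115 and 0.122 over the alternatives). Col6a3 also lost it without S7HP+Snail tumor 15, and Col8a1 without S7HP+Snail tumor 13 or 15. Col15a1 also lost it without S7HP+Snail tumor 14, S7HP+Snail tumor 15 or S7HP tumor 9. With only the 6 libraries compared, Col5a2, Col6a3 and Col15a1 lost the call. With no trend and no robust variances, Col8a1 and Col15a1 lost it. The number of collagens lower was 4, 5 and 4 without LHP tumors 2, 3 and 6, and 5 without S7HP+Snail tumor 15. Since S7HP tumors serve in 2 of the 3 comparisons, and LHP tumors likewise, the comparisons are not independent of each other.

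**Figure D2:**
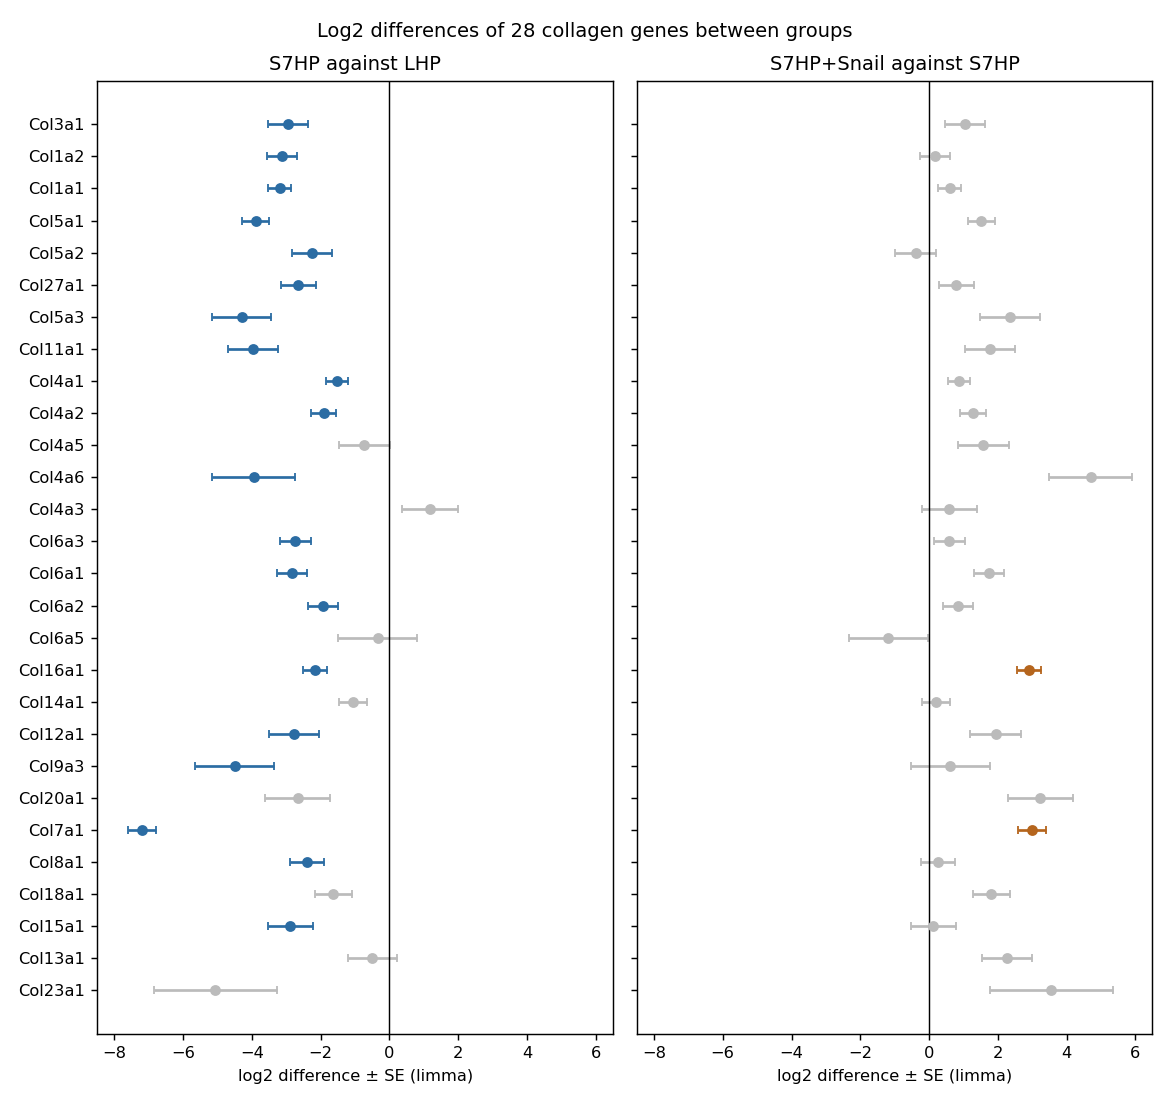
Log2 differences with limma's standard error for the 28 tested collagens above 0 in every group, S7HP against LHP on the left and S7HP+Snail against S7HP on the right, with called genes in color and the others in gray. Nearly all points on the left lie below 0, down to -7.20 for Col7a1, and most on the right lie above 0, where Col16a1 and Col7a1 are the ones in color.

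All 8 fibrillar collagens tested fell in S7HP tumors against LHP tumors, where 9.54% of all genes tested fell. Their median difference was -3.16, while Col2a1, Col11a2 and Col24a1 were too low to test. Col1a1, on chromosome 11 from 94936224 to 94953042 (GRCm38), encodes the main chain of type I collagen, the most abundant fibril of scar tissue. It was at 11.82, 10.81 and 10.65 in S7HP+Snail tumors, at 10.40, 10.05 and 11.04 in S7HP tumors and at 13.66, 13.67 and 13.75 in LHP tumors. The LHP tumors averaged 13.69 ± 0.05 (SD, n = 3) and lay above all 6 others, while the other groups overlapped. The log2 difference of S7HP from LHP tumors was -3.19 ± 0.34 (SE, limma, Benjamini-Hochberg adjusted p = 0.000691), and in S7HP+Snail tumors the difference from LHP tumors was -2.60 ± 0.34 (adjusted p = 0.00378). S7HP+Snail tumors differed from S7HP tumors by 0.60 ± 0.34, which did not pass the test (adjusted p = 0.404). Its partner chain Col1a2 fell by 3.13 in S7HP tumors (adjusted p = 0.00196) and fell by 2.96 in S7HP+Snail tumors (adjusted p = 0.00608), both against LHP tumors.

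Col3a1, which makes the fine reticular fibrils, was at 13.42, 10.59 and 12.18 in S7HP+Snail tumors, at 10.72, 10.68 and 11.65 in S7HP tumors and at 13.85, 14.12 and 13.93 in LHP tumors. The 3 LHP tumors were the highest, and S7HP+Snail tumor 13 came close to them while tumor 14 lay below all S7HP tumors. Col3a1 fell by 2.95 ± 0.59 in S7HP tumors (adjusted p = 0.00955). The difference between S7HP+Snail and LHP tumors was -1.90 ± 0.59 and was not called (adjusted p = 0.0852), but it was called without S7HP+Snail tumor 13.

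The 3 type V chains, minor fibrillar collagens that set the diameter of type I fibrils, all fell in S7HP tumors against LHP tumors. Col5a1 was at 9.60, 8.93 and 9.21 in S7HP+Snail tumors, at 7.51, 7.45 and 8.21 in S7HP tumors and at 10.73, 11.98 and 12.14 in LHP tumors. No group overlapped another for this gene, S7HP tumors being the lowest and LHP tumors the highest. Col5a1 fell by 3.89 ± 0.39 in S7HP tumors (adjusted p = 0.00059) and fell by 2.37 ± 0.39 in S7HP+Snail tumors (adjusted p = 0.00921), both against LHP tumors. Its difference between S7HP+Snail and S7HP tumors, 1.52 ± 0.39, was not called (adjusted p = 0.0842), but was without LHP tumor 2. Col5a3 was at 9.15, 4.97 and 8.35 in S7HP+Snail tumors, at 4.97, 5.36 and 5.05 in S7HP tumors and at 9.45, 9.63 and 9.19 in LHP tumors. S7HP+Snail tumors 13 and 15 were near the LHP level and tumor 14 was at the S7HP level. Col5a3 fell by 4.30 ± 0.87 in S7HP tumors (adjusted p = 0.00959). The S7HP+Snail against S7HP difference of 2.36 ± 0.87 was not called (adjusted p = 0.191), and without S7HP+Snail tumor 14 it was 3.62 (adjusted p = 0.0038).

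Col5a2 was at 9.13, 6.32 and 8.14 in S7HP+Snail tumors, 8.36, 7.75 and 8.64 in S7HP tumors and 10.55, 10.58 and 10.38 in LHP tumors. The S7HP+Snail and S7HP tumors overlapped, with tumor 14 the lowest of all 9. Col5a2 fell by 2.25 ± 0.59 in S7HP tumors (adjusted p = 0.0275), a call that depended on LHP 2, LHP 3, LHP 6, S7HP 9 and S7HP 11, each of which ended it when left out (adjusted p of up to 0.0883). Within each tumor, the level of Col5a1 minus that of Col5a2 was 0.47 to 2.62 in S7HP+Snail tumors, -0.85 to -0.30 in S7HP tumors and 0.18 to 1.77 in LHP tumors. Col5a2 was thus the higher of the pair in the 3 S7HP tumors and the lower in the other 6.

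Col11a1, a cartilage fibrillar chain also made by activated fibroblasts, was at 7.71, 5.64 and 4.91 in S7HP+Snail tumors, at 4.79, 3.53 and 4.64 in S7HP tumors and at 8.01, 7.67 and 9.22 in LHP tumors. S7HP+Snail tumor 13 reached the LHP range and the other 5 non-LHP tumors lay below it. Col11a1 fell by 3.98 ± 0.73 in S7HP tumors (adjusted p = 0.00679). The difference between S7HP+Snail and LHP tumors, -2.22 ± 0.73, was not called (adjusted p = 0.0971), but was without S7HP+Snail tumor 13. Col27a1 fell by 2.65 ± 0.51 in S7HP tumors (adjusted p = 0.00788), to a mean of 6.70 ± 0.39 in S7HP tumors against 9.35 ± 1.15 in LHP tumors (SD, n = 3 each). In S7HP+Snail tumors it averaged 7.49 ± 0.28 (SD, n = 3), and its difference from LHP tumors was called only without LHP tumor 3 among the 15 alternatives.

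Among the 6 basement membrane genes 5 were tested, and Col4a1, Col4a2 and Col4a6 fell in S7HP tumors against LHP tumors, where 9.54% of all genes tested fell. None of the 5 was called between S7HP+Snail and S7HP tumors or between S7HP+Snail and LHP tumors (limma), where 3 and 0 had an unadjusted p under 0.05. Such a p was held by 2533 and 3575 of the 14215 genes tested, in either direction. Col4a1 and Col4a2 encode the chains of the ubiquitous type IV network and lie head to head on chromosome 8, with starts 21 bases apart. Col4a2 was at 10.15, 8.69 and 9.67 in S7HP+Snail tumors, at 8.44, 7.83 and 8.40 in S7HP tumors and at 9.86, 10.02 and 10.54 in LHP tumors. The S7HP tumors were below all others, and the S7HP+Snail tumors overlapped the LHP tumors. Col4a2 fell by 1.92 ± 0.38 in S7HP tumors (adjusted p = 0.00834). Col4a1 fell by 1.53 ± 0.32 (adjusted p = 0.0104), with means of 10.50 ± 0.39 in S7HP tumors against 12.03 ± 0.04 in LHP tumors (SD, n = 3 each). The level of Col4a1 minus that of Col4a2 stayed between 1.54 and 2.31 in all 9 tumors.

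Col4a5 and Col4a6 encode the chains of a second type IV network, found in some epithelial basement membranes, and also lie head to head, on chromosome X with starts 1343 bases apart. Col4a6 was at 3.86, 8.32 and 6.19 in S7HP+Snail tumors, at 0, 2.98 and 1.29 in S7HP tumors and at 6.04, 3.86 and 6.22 in LHP tumors. All S7HP tumors lay near the reading limit and below the other 6. The call in S7HP tumors, -3.95 ± 1.21 against LHP tumors (adjusted p = 0.047), ended on leaving out any of LHP 2, LHP 3, LHP 6, S7HP 9, S7HP 12 and S7HP+Snail 15, and under 4 other settings (adjusted p of up to 0.156). Col4a5 was at 7.38, 10.87 and 9.55 in S7HP+Snail tumors, at 7.94, 7.25 and 7.89 in S7HP tumors and at 8.64, 7.68 and 8.95 in LHP tumors. S7HP+Snail tumor 14 was the highest of the 9 for both genes, and within its group tumor 13 was the lowest for both. Against S7HP tumors the S7HP+Snail differences were 4.70 ± 1.21 for Col4a6 (adjusted p = 0.0839) and 1.58 ± 0.74 for Col4a5 (adjusted p = 0.308), and both were called without S7HP+Snail tumor 13. Col4a3, whose product joins a further type IV network in kidney, was low, with means of 4.37, 3.78 and 2.61 in S7HP+Snail, S7HP and LHP tumors, and was not called in any comparison.

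The beaded filament genes encode type VI collagen, which lies around cells and binds both fibrils and basement membrane. Of the 6, 4 were tested and Col6a1, Col6a2 and Col6a3 fell in S7HP tumors against LHP tumors, where 9.54% of all genes tested fell. Col6a3 was at 12.92, 11.02 and 10.93 in S7HP+Snail tumors, at 10.89, 11.03 and 11.17 in S7HP tumors and at 13.83, 13.66 and 13.82 in LHP tumors. S7HP+Snail tumors 14 and 15 were within the S7HP range and tumor 13 lay between it and the LHP range. Col6a3 fell by 2.74 ± 0.45 in S7HP tumors (adjusted p = 0.0046). Col6a1 was at 7.19, 6.34 and 7.72 in S7HP+Snail tumors, at 5.26, 4.79 and 5.95 in S7HP tumors and at 7.78, 8.42 and 8.32 in LHP tumors. The groups did not overlap for Col6a1, with S7HP tumors lowest. Col6a1 fell by 2.84 ± 0.44 in S7HP tumors (adjusted p = 0.00349), and its S7HP+Snail against S7HP difference of 1.74 ± 0.44 (adjusted p = 0.08) was called only without S7HP+Snail tumor 14 among the 15 alternatives.

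Col6a2 fell by 1.94 ± 0.44 in S7HP tumors (adjusted p = 0.0154), and the call ended on leaving out any of LHP 3, LHP 6 and S7HP 11 (adjusted p of up to 0.0613). The level of Col6a1 minus that of Col6a2 was 0.38 to 0.97 in S7HP+Snail tumors, -0.29 to -0.18 in S7HP tumors and 0.51 to 0.83 in LHP tumors. Col6a2 was the higher of these partner chains in the 3 S7HP tumors and the lower in the other 6. Col6a3 was above Col6a1 by 3.21 to 5.73 in S7HP+Snail tumors, 5.22 to 6.24 in S7HP tumors and 5.24 to 6.05 in LHP tumors. Col6a5 was low and not called in any comparison, and Col6a4 was listed at 0 in all S7HP+Snail and S7HP tumors.

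Of the 6 FACIT genes tested, 3 fell in S7HP tumors against LHP tumors, where 9.54% of all genes tested fell. Col16a1 rose in S7HP+Snail tumors against S7HP tumors, where 1.01% of all genes tested rose. Col16a1, on chromosome 4 from 130047840 to 130099283, encodes a minor collagen at the surface of fibrils and near basement membranes. It was at 10.54, 10.92 and 10.23 in S7HP+Snail tumors, at 8.02, 7.18 and 7.75 in S7HP tumors and at 9.22, 9.87 and 10.39 in LHP tumors. The S7HP tumors were below all others, and the S7HP+Snail tumors overlapped the upper end of the LHP range. Col16a1 fell by 2.18 ± 0.35 in S7HP tumors against LHP tumors (adjusted p = 0.0039) and rose by 2.91 ± 0.35 in S7HP+Snail tumors against S7HP tumors (adjusted p = 0.00517). Both calls held under all 15 alternatives. The difference between S7HP+Snail and LHP tumors was 0.74 ± 0.35 and was not called (adjusted p = 0.221).

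Col9a1, on chromosome 1 from 24177610 to 24252684, encodes a chain of type IX collagen, which decorates cartilage fibrils, and has a second start used outside cartilage. It was at 7.79, 8.65 and 6.21 in S7HP+Snail tumors and listed at 0 in the 3 S7HP tumors and the 3 LHP tumors. Its level is given as a description, with no fold because the other groups are listed at 0. It reached the filter only through the 3 S7HP+Snail tumors, so that it had to differ once tested, and its calls in both comparisons and their hold under the alternatives add nothing to the levels. The other type IX genes did not share this pattern. Col9a2 was at 0, 4.11 and 1.35 in S7HP+Snail tumors, at 1.0, 0 and 0 in S7HP tumors and at 0 in all LHP tumors, and was too low to test. Col9a3 was at 2.47, 3.97 and 2.92 in S7HP+Snail tumors, at 2.81, 4.70 and 0 in S7HP tumors and at 5.56, 7.79 and 7.66 in LHP tumors.

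Col9a3 was lower in S7HP tumors than in LHP tumors by the test (-4.50 ± 1.14, adjusted p = 0.0239), but the value is uncertain. Its 3′ end overlaps that of Tcfl5, a transcription factor gene on the opposite strand, by 234 bases, and no source used here gives the strand setting of the counting. Tcfl5 was at 0, 2.81 and 1.35 in S7HP+Snail tumors, at 1.0, 4.38 and 0 in S7HP tumors and at 5.48, 7.80 and 7.67 in LHP tumors, near the Col9a3 values in S7HP tumor 11 and the LHP tumors, so reads of one may be counted for the other. The call also ended on leaving out any of LHP 3, LHP 6 and S7HP 9 (adjusted p of up to 0.0875).

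Both annotated starts of Col9a1 are shown because the 3′ tags do not tell which one the S7HP+Snail tumors used. The stretches are from RefSeq (GRCm38.p6), 5′ to 3′ on the plus strand, chr1:24177360-24177609 before the upstream start and chr1:24194953-24195186 before the downstream start, with capitals for matches to the Smad box CAGAC or GTCTG. The second stretch has 234 bases and ends 17 bases before its start, as 16 bases in an annotated exon were left out.
Col9a1, upstream start: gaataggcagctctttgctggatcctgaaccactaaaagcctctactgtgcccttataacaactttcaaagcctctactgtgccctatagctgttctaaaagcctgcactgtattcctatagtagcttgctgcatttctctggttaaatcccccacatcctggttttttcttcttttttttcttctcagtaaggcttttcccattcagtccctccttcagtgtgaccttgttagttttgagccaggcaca
Col9a1, downstream start: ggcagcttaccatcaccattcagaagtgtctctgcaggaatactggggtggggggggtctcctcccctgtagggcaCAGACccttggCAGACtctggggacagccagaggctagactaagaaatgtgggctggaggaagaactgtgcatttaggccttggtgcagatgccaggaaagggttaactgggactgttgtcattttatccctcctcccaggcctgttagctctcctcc
Neither stretch holds the Snail E-box CACCTG or CAGGTG, and the second holds 2 Smad boxes, 174 and 163 bases before the start.

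Col12a1, which links fibrils in tissue under tension, was at 7.14, 9.49 and 6.11 in S7HP+Snail tumors, at 6.09, 4.89 and 5.95 in S7HP tumors and at 8.32, 8.56 and 8.37 in LHP tumors. S7HP+Snail tumor 14 was the highest of the 9, and all S7HP tumors were the lowest. The fall in S7HP tumors, -2.77 ± 0.73 (adjusted p = 0.0282), was lost when any of the 6 tumors of this comparison was left out (adjusted p of up to 0.0905). Col14a1, another FACIT gene of the fibril surface, had means of 8.65, 8.45 and 9.51 in S7HP+Snail, S7HP and LHP tumors and was not called in any comparison, except between S7HP and LHP tumors without S7HP tumor 9. Col20a1 was near the reading limit in S7HP tumors and was not called either, except between S7HP and LHP tumors with no trend and no robust variances (-2.67, limma, Benjamini-Hochberg adjusted p = 0.0297). Its level was 2.81, 4.28 and 4.91 in S7HP+Snail tumors, 1.0, 0 and 1.29 in S7HP tumors and 4.42, 3.44 and 2.44 in LHP tumors.

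Col7a1, on chromosome 9 from 108953586 to 108984875, encodes the anchoring fibril that ties the epidermal basement membrane to the tissue under it, and is a known TGF-β target in fibroblasts. It was at 7.72, 6.66 and 7.77 in S7HP+Snail tumors, at 3.97, 4.08 and 5.14 in S7HP tumors and at 11.37, 11.64 and 11.77 in LHP tumors. The 3 groups did not overlap, and the S7HP+Snail tumors lay between the others. Col7a1 fell by 7.20 ± 0.41 in S7HP tumors against LHP tumors (adjusted p = 4.01e-05) and fell by 4.21 ± 0.41 in S7HP+Snail tumors against LHP tumors (adjusted p = 0.00122). It rose by 2.98 ± 0.41 in S7HP+Snail tumors against S7HP tumors (adjusted p = 0.00802), and this call alone was lost when only the 6 libraries compared were fitted (adjusted p = 0.056). Ucn2, a peptide hormone gene that starts 1135 bases past the end of Col7a1 on the same strand, was at 2.12, 0 and 5.04 in S7HP+Snail tumors, at 0, 1.29 and 0 in S7HP tumors and at 7.12, 7.51 and 6.95 in LHP tumors. Both genes were highest in the LHP tumors, and the part of either in the other's counts was not tested.

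**Figure D3:**
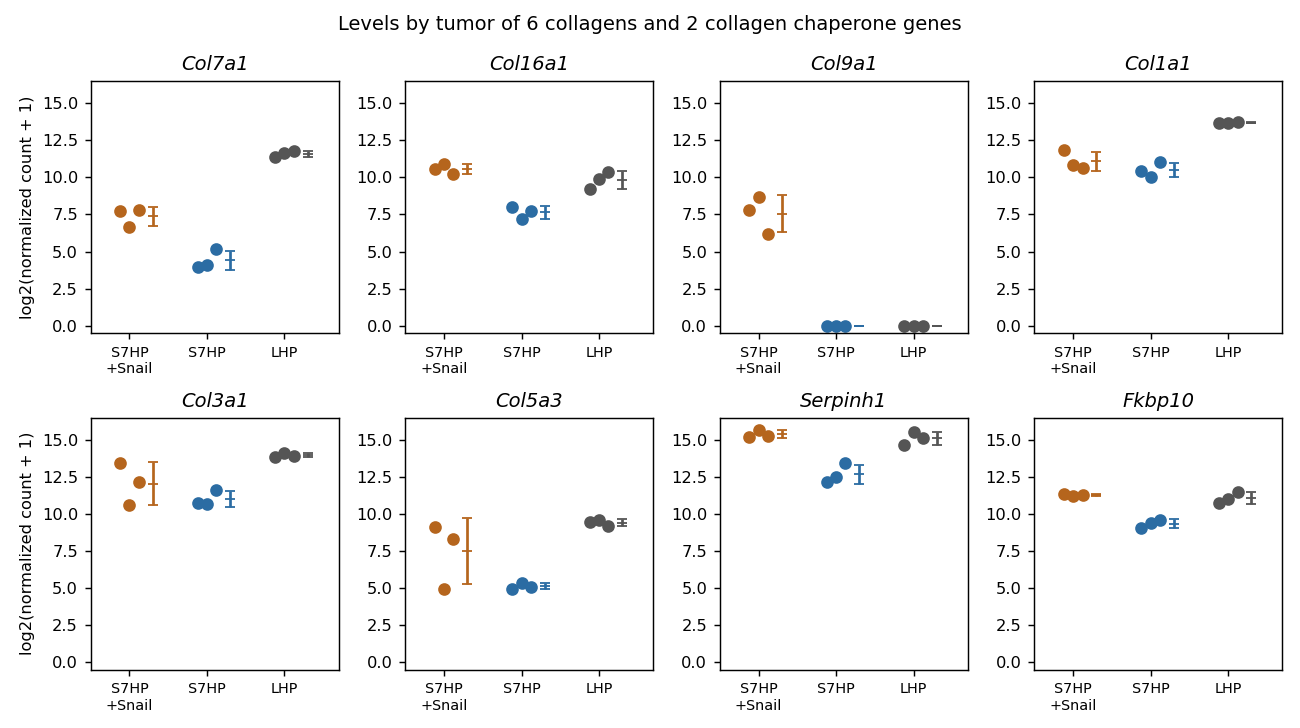
Levels by tumor of 6 collagens and of the collagen chaperone genes Serpinh1 and Fkbp10, as log2(normalized count + 1). Points are tumors and bars the group mean ± SD (n = 3), with S7HP+Snail, S7HP and LHP tumors from left to right. The groups are separate for Col7a1, while S7HP+Snail tumors reach the LHP level for Col16a1, Serpinh1 and Fkbp10 and not for Col1a1.

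The 250 bases before the starts of Col7a1 and Col3a1 are shown as examples of collagens that fell in S7HP tumors. They are from RefSeq (GRCm38.p6), 5′ to 3′ on the plus strand, chr9:108953336-108953585 and chr1:45311288-45311537. Capitals mark the Smad box (CAGAC or GTCTG), the CCAAT box (CCAAT or ATTGG) and the TATA box (TATAAA or TTTATA).
Col7a1: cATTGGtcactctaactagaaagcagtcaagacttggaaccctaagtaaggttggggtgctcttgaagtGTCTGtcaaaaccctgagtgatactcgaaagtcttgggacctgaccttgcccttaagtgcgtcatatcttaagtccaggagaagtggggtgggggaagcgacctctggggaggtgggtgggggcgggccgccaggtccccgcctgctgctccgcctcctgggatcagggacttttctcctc
Col3a1: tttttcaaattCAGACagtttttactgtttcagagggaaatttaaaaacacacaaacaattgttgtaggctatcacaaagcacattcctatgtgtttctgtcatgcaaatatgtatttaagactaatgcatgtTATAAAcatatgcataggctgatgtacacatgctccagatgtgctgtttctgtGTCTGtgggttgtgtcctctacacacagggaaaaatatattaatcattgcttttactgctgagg
Col7a1 has 1 Smad box, 181 bases before the start, and a CCAAT box read on the other strand, while Col3a1 has Smad boxes 239 and 64 bases before the start and a TATA box at 117. Over windows of 250 bases before to 50 after a start, 35 of the 44 collagens had an entry, with 38 starts. A Smad box stood in 20 of the 38 windows (52.63%), against 49.59% of 32851 promoters. The Snail E-box stood in 5 (13.16%, against 20.21% of all promoters), the AP-1 motif TGAGTCA or TGACTCA in 1 (2.632%, against 5.202%), the CCAAT box in 13 (34.21%, against 37.41%) and the TATA box in 5 (13.16%, against 13.62%). Both strands were searched, and none of these motifs contains another. A match to letters is not a site in use, and no comparison of levels was drawn from these counts.

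Among the remaining classes, Col8a1 and Col15a1 fell in S7HP tumors against LHP tumors, where 9.54% of all genes tested fell. Col8a1, a short-chain collagen of vessel walls, was at 7.57, 7.46 and 6.77 in S7HP+Snail tumors, at 7.34, 5.86 and 7.84 in S7HP tumors and at 8.99, 9.37 and 9.90 in LHP tumors. The LHP tumors were the highest and the other groups overlapped. Col8a1 fell by 2.40 ± 0.49 in S7HP tumors (adjusted p = 0.0102). Col15a1, a multiplexin that stabilizes the basement membrane of vessels and muscle, was at 9.86, 7.32 and 7.09 in S7HP+Snail tumors, at 7.92, 7.25 and 8.71 in S7HP tumors and at 10.71, 11.00 and 10.82 in LHP tumors. The LHP tumors were again the highest, and S7HP+Snail tumor 13 stood above tumors 14 and 15. Col15a1 fell by 2.88 ± 0.66 in S7HP tumors (adjusted p = 0.0161), a call ended by leaving out any of LHP 3, LHP 6, S7HP 9 and S7HP 11 (adjusted p of up to 0.0595).

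The other multiplexin, Col18a1, whose end fragment is endostatin, is made by hepatocytes as well as by stellate and endothelial cells. It was at 11.86, 14.00 and 13.54 in S7HP+Snail tumors, at 11.75, 10.67 and 11.54 in S7HP tumors and at 12.70, 13.58 and 12.58 in LHP tumors. All S7HP tumors were below all others, by a little in the case of S7HP+Snail tumor 13. Neither the S7HP against LHP difference (-1.63 ± 0.54, adjusted p = 0.0617) nor the S7HP+Snail against S7HP difference (1.81 ± 0.54, adjusted p = 0.115) was called. The first was called without S7HP+Snail tumor 13 or 14 or with only the 6 libraries compared, and the second without tumor 13. Its 3′ part overlaps Slc19a1 on the opposite strand by 8825 bases, so its counts may include reads of that gene.

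The transmembrane collagens Col13a1 and Col23a1 were not called in any comparison of the fit. Col13a1, of cell adhesion sites, was at 6.77, 9.18 and 6.83 in S7HP+Snail tumors, at 6.42, 5.04 and 4.50 in S7HP tumors and at 5.29, 6.32 and 5.86 in LHP tumors. Every S7HP+Snail tumor was above all 6 others. Its S7HP+Snail against S7HP difference was 2.27 ± 0.72 (adjusted p = 0.134). Col23a1 was at 3.97, 8.88 and 1.35 in S7HP+Snail tumors, at 0, 0 and 3.54 in S7HP tumors and at 4.50, 6.75 and 7.51 in LHP tumors. The S7HP+Snail tumors overlapped both other groups, with tumor 14 the highest of all 9, and the S7HP against LHP difference of -5.07 ± 1.79 (adjusted p = 0.0761) was called without S7HP+Snail tumor 14 or 15 or with only the 6 libraries compared.

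The 15 collagens that did not reach the filter were mostly near the reading limit, and 4 of them with a tumor or a group that stood out are given first. Col25a1, a brain transmembrane collagen, was at 3.60, 10.55 and 0 in S7HP+Snail tumors, at 0 in all S7HP tumors and at 0, 0 and 3.97 in LHP tumors, so that tumor 14 alone held a high level. Col26a1 was at 3.92, 7.23 and 2.64 in S7HP+Snail tumors, at 3.27, 2.64 and 0 in S7HP tumors and at 0 in all LHP tumors. Col28a1, a von Willebrand domain collagen related to type VI, was at 4.97, 3.37 and 4.39 in S7HP+Snail tumors, at 1.0, 0 and 2.19 in S7HP tumors and at 0 in all LHP tumors. The cartilage collagen Col2a1 was listed at 0 in all S7HP+Snail and S7HP tumors and was at 3.69, 5.09 and 2.69 in LHP tumors. Tested without the filter over 19417 genes, Col2a1 was lower in S7HP tumors (limma, Benjamini-Hochberg adjusted p = 0.00591) and in S7HP+Snail tumors (adjusted p = 0.0116) than in LHP tumors, and Col28a1 was higher in S7HP+Snail tumors than in LHP tumors (adjusted p = 0.0116). Col2a1 entered that test only through the LHP tumors, and Col28a1 was at 0 in all LHP tumors, so these calls add nothing to the levels. The other 11 were Col10a1, Col11a2, Col17a1, Col19a1, Col22a1, Col24a1, Col4a4, Col6a4, Col6a6, Col8a2 and Col9a2, and none of them was called in any comparison without the filter. Among these, Col10a1 was at 1.47, 0 and 0 in S7HP+Snail tumors, at 0, 2.64 and 0 in S7HP tumors and at 4.50, 1.22 and 5.77 in LHP tumors.

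Summed over the 44 genes, collagens made up 0.209%, 0.176% and 0.155% of the normalized counts in S7HP+Snail tumors, 0.0737%, 0.0539% and 0.0896% in S7HP tumors and 0.400%, 0.466% and 0.486% in LHP tumors. The groups did not overlap in this sum. Fibrillar genes took 0.106%, 0.0272% and 0.0483% in S7HP+Snail tumors, 0.0276%, 0.0235% and 0.0447% in S7HP tumors and 0.232%, 0.265% and 0.302% in LHP tumors. For these the S7HP+Snail tumors overlapped the S7HP tumors. Basement membrane genes took 0.0215% to 0.0256% in S7HP+Snail tumors, 0.00727% to 0.0117% in S7HP tumors and 0.0273% to 0.0320% in LHP tumors. For these the S7HP+Snail tumors lay between the other groups, with no overlap.

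**Figure D4:**
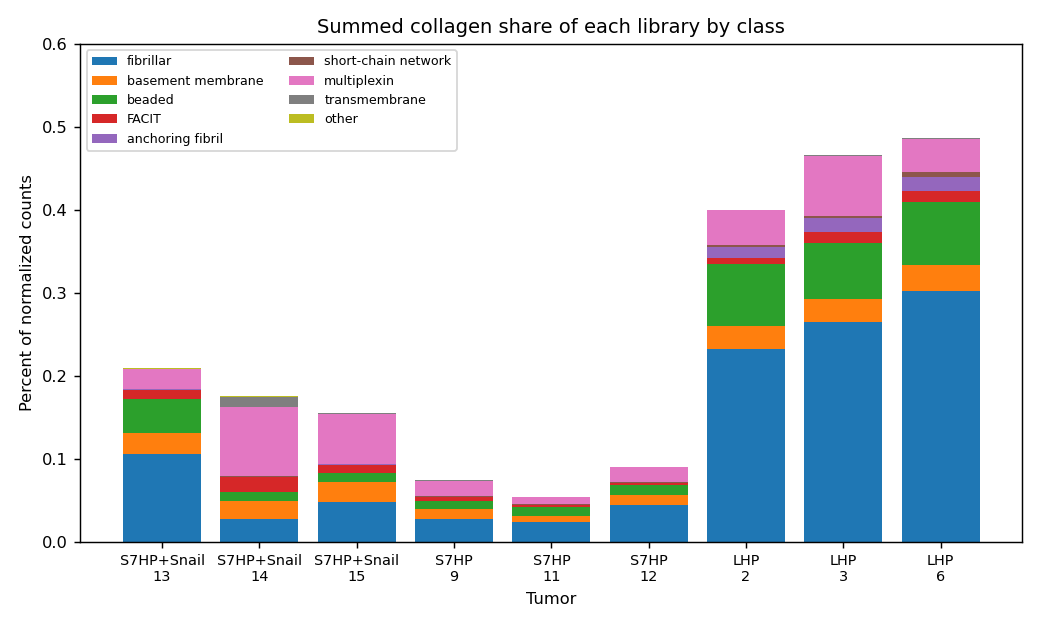
Share of each library's normalized counts, in percent, that came from collagen genes, stacked by class, for the 3 S7HP+Snail, 3 S7HP and 3 LHP tumors. The LHP bars reach 0.400% to 0.486%, mostly fibrillar, and the multiplexin part is the largest within the bars of S7HP+Snail tumors 14 and 15.

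The make-up of the collagen counts also differed between tumors. Col18a1 held 8.93%, 47.0% and 38.5% of them in S7HP+Snail tumors, 23.5%, 15.2% and 16.7% in S7HP tumors and 8.35%, 13.2% and 6.32% in LHP tumors. It ranked first in S7HP+Snail tumors 14 and 15 and in S7HP tumor 9, while Col3a1 ranked first in S7HP+Snail tumor 13, S7HP tumor 12 and LHP tumors 2 and 3. Col6a3 ranked first in S7HP tumor 11 and Col1a2 in LHP tumor 6. In the LHP tumors the top 4 were Col3a1, Col6a3, Col1a2 and Col1a1 in each case, with 63.4% to 70.3% of the collagen counts together. The partner chains of type I collagen kept close to each other, with Col1a1 minus Col1a2 at -0.31 to 0.57 in S7HP+Snail tumors, -0.42 to -0.37 in S7HP tumors and -0.68 to -0.10 in LHP tumors.

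A list of 22 genes covered the folding, hydroxylation and export of collagen in the endoplasmic reticulum. It also held Creb3l1, a transcription factor gene, and 21 of the 22 were tested. In S7HP tumors against LHP tumors 6 of them fell, 1 rose and 14 were not called, with a median difference of -0.58, where 9.54% of all genes tested fell and 9.47% rose. Serpinh1, the collagen chaperone HSP47, was at 15.18, 15.67 and 15.30 in S7HP+Snail tumors, at 12.17, 12.50 and 13.42 in S7HP tumors and at 14.66, 15.56 and 15.12 in LHP tumors. The S7HP tumors were below all others, and the S7HP+Snail and LHP tumors overlapped. Serpinh1 fell by 2.42 ± 0.35 in S7HP tumors (adjusted p = 0.00247) and rose by 2.69 ± 0.35 in S7HP+Snail tumors against S7HP tumors (adjusted p = 0.00708). Fkbp10, a prolyl isomerase that works with it, fell by 1.74 ± 0.25 in S7HP tumors (adjusted p = 0.00226) and rose by 1.93 ± 0.25 in S7HP+Snail tumors (adjusted p = 0.00619). Creb3l1, a membrane-bound transcription factor of collagen secretion, fell by 3.36 ± 0.49 in S7HP tumors (adjusted p = 0.0025) and rose by 2.81 ± 0.49 in S7HP+Snail tumors (adjusted p = 0.0219), the rise being lost without S7HP tumor 11 or 12 (adjusted p of up to 0.0917). These 3 were the only members of this list called between S7HP+Snail and S7HP tumors, where 1.01% of all genes tested rose. In that comparison 18 were not called, 6 of the 21 differences were negative and the median was 0.47. P4ha2, a prolyl hydroxylase subunit, fell by 2.04 ± 0.42 in S7HP tumors (adjusted p = 0.00983). Between S7HP+Snail and LHP tumors 1 member fell, the lysyl hydroxylase gene Plod2, by 1.19 ± 0.29 (adjusted p = 0.0369), and none rose by limma (2 had an unadjusted p under 0.05). Such a p was held by 3575 of the 14215 genes tested, in either direction. That call of Plod2 ended on leaving out any LHP tumor, any S7HP+Snail tumor or S7HP 12, and with no trend and no robust variances (adjusted p of up to 0.122).

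Of 13 genes for trimming and cross-linking secreted procollagen 12 were tested. In S7HP tumors against LHP tumors 7 of them fell, with a median of -1.82, where 9.54% of all genes tested fell. Bmp1, the C-propeptide protease, fell by 1.54 ± 0.23 (adjusted p = 0.00275) and Adamts2, the N-propeptide protease, fell by 1.93 ± 0.30 (adjusted p = 0.00316). The lysyl oxidase gene Lox was at 11.02, 8.86 and 10.84 in S7HP+Snail tumors, at 10.31, 9.05 and 10.31 in S7HP tumors and at 12.98, 13.56 and 12.86 in LHP tumors. The LHP tumors were above all others, which overlapped. Lox fell by 3.24 ± 0.56 in S7HP tumors (adjusted p = 0.00583), and Loxl1 fell by 3.33 ± 0.66 (adjusted p = 0.00925). In S7HP+Snail tumors 4 genes of the list fell against LHP tumors, where 3.87% of all genes tested fell. The log2 differences were -1.65 ± 0.30 for Adamts2, -2.89 ± 0.56 for Lox, -2.65 ± 0.66 for Loxl1 and -1.17 ± 0.30 for Loxl3 (adjusted p = 0.0135, 0.0188, 0.0446 and 0.0466). Without LHP tumor 3 or 6 all of these 4 calls were lost, and all but that of Adamts2 without LHP tumor 2 (adjusted p of up to 0.0637, 0.0777, 0.143 and 0.161 over the alternatives). Loxl1 also lost its call on leaving out S7HP 9, S7HP 12 or S7HP+Snail 15, and Loxl3 on leaving out S7HP 11, S7HP 12 or any S7HP+Snail tumor. Both also lost it without the filter, with no trend and no robust variances, and with only the 6 libraries compared. Pcolce, which speeds up Bmp1, was the only member called between S7HP+Snail and S7HP tumors, where it rose by 2.24 ± 0.37 (adjusted p = 0.0178), a call lost without S7HP tumor 11 or 12 or with only the 6 libraries compared (adjusted p of up to 0.0803).

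Of 10 collagen receptor genes 8 were tested, and the kinase gene Ddr2 (-2.51 ± 0.50, adjusted p = 0.00891) and the integrin chain gene Itgb1 (-1.48 ± 0.30, adjusted p = 0.01) fell in S7HP tumors against LHP tumors, where 9.54% of all genes tested fell. None of the 8 was called between S7HP+Snail and S7HP tumors by limma, where 1 in each direction had an unadjusted p under 0.05, beside 2533 of the 14215 genes tested. Itgb1 also fell in S7HP+Snail tumors against LHP tumors, by 1.22 ± 0.30 (adjusted p = 0.0415), but lost the call on leaving out any tumor but S7HP+Snail 15 and under other settings (adjusted p of up to 0.143). Of 16 fibril-associated genes 12 were tested. Beside the same 9.54% of all genes tested, 5 of the 12 fell in S7HP tumors against LHP tumors. Among them periostin, Postn, fell by 1.87 ± 0.37 (adjusted p = 0.00834), biglycan, Bgn, fell by 1.98 ± 0.42 (adjusted p = 0.0117), thrombospondin 2, Thbs2, fell by 4.30 ± 1.07 (adjusted p = 0.0226) and fibronectin, Fn1, fell by 1.43 ± 0.42 (adjusted p = 0.041). Thbs2 lost the call on leaving out any LHP tumor, S7HP 9 or S7HP 11, and Fn1 on leaving out any LHP tumor, S7HP 11, S7HP 12 or S7HP+Snail 13 (adjusted p of up to 0.0812 and 0.115). Fn1 also lost it without the filter and with no trend and no robust variances. None was called between S7HP+Snail and S7HP tumors by limma, where 4 of the 12 were higher at an unadjusted p under 0.05, beside the same 2533 of 14215 genes in either direction. Bgn was also lower in S7HP+Snail than in LHP tumors, with a log2 difference of -2.03 ± 0.42 (adjusted p = 0.0239), a call lost without any LHP tumor or S7HP+Snail tumor 15 (adjusted p of up to 0.0865). Of 9 protease genes 8 were tested, and only the gelatinase gene Mmp9 was called, where it fell by 3.01 ± 0.60 in S7HP tumors against LHP tumors (adjusted p = 0.00901) and rose by 2.79 ± 0.60 in S7HP+Snail tumors against S7HP tumors (adjusted p = 0.0454). The rise ended on leaving out LHP 2, S7HP+Snail 14, S7HP+Snail 15 or any S7HP tumor, and under 3 other settings (adjusted p of up to 0.152).

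Some markers of the cells that make collagen in the liver fell too. Where 9.54% of all genes tested fell in S7HP tumors against LHP tumors, 5 of 17 stellate cell and fibroblast markers, all tested, fell. Among them were Acta2 (-3.02 ± 0.51, adjusted p = 0.00499), Pdgfrb (-2.64 ± 0.46, adjusted p = 0.00584), Ecm1 (-2.53 ± 0.44, adjusted p = 0.00589) and Tagln (-1.57 ± 0.33, adjusted p = 0.0111). None of the 17 rose by limma (1 had an unadjusted p under 0.05), and 2 of the differences were positive. In either direction, 4892 of the 14215 genes tested had such a p. Reln, not called, was at 10.17, 8.48 and 8.99 in S7HP tumors, above all LHP tumors at 7.03, 7.61 and 7.04. None of the 17 was called between S7HP+Snail and S7HP tumors by limma. At an unadjusted p under 0.05, 3 of the 17 were higher, where 2533 of the 14215 genes tested differed in either direction. Between S7HP+Snail and LHP tumors 3 of the 17 fell, where 3.87% of all genes tested fell. Their log2 differences were -2.02 for Pdgfrb, -2.19 for Acta2 and -1.71 for Cygb (adjusted p = 0.0321, 0.0343 and 0.0381). All 3 calls ended on leaving out LHP 3, LHP 6 or S7HP+Snail 14, those of Pdgfrb and Cygb also on leaving out S7HP+Snail 15, that of Cygb on leaving out LHP 2 and that of Acta2 on leaving out S7HP 11 or S7HP 12 (adjusted p of up to 0.114, 0.117 and 0.126). All 3 also ended with no trend and no robust variances, and those of Pdgfrb and Acta2 with only the 6 libraries compared. Pdgfra, not called, was at 9.16, 11.17 and 8.73 in S7HP+Snail tumors, above all LHP tumors at 7.73, 7.19 and 8.10. The summed share of this list was 0.0341% to 0.0434% of the counts in S7HP+Snail tumors, 0.0149% to 0.0289% in S7HP tumors and 0.0664% to 0.114% in LHP tumors. None of its markers was at 0 in all tumors of a group, and its part in the collagen differences was not tested.

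Markers of other cell types that a liver tumor can hold were read in the same way. Of 16 endothelial markers 3 fell in S7HP tumors against LHP tumors, and of 12 macrophage markers 2 fell, where 9.54% of all genes tested fell and 19.0% were called in either direction. Between S7HP+Snail and S7HP tumors 9 of the 16 endothelial markers were higher at an unadjusted p under 0.05 (limma). Of the 14215 genes tested, 2533 had such a p in either direction. In 7 of the 16 every S7HP+Snail tumor lay above every S7HP tumor, which held for 9.53% of all genes tested. Of the 16 only Plvap, of the diaphragms of fenestrated endothelium, was called, where it rose by 1.45 ± 0.30 (adjusted p = 0.0382). That call ended on leaving out any tumor but S7HP+Snail 15 and under other settings (adjusted p of up to 0.130). Egfl7 was called higher in S7HP+Snail than in LHP tumors (0.96 ± 0.23, adjusted p = 0.0375), a call that ended on leaving out any of these 6 tumors and under other settings (adjusted p of up to 0.130). The summed endothelial share was 0.0554% to 0.0794% in S7HP+Snail tumors, 0.0367% to 0.0592% in S7HP tumors and 0.0507% to 0.0646% in LHP tumors. No macrophage marker was called between S7HP+Snail and either other group by limma. Against S7HP and LHP tumors, 0 and 1 of the 12 had an unadjusted p under 0.05, where 2533 and 3575 of the 14215 genes tested did. The summed macrophage share was 0.0229% to 0.0362% in S7HP+Snail tumors, 0.0186% to 0.0242% in S7HP tumors and 0.0287% to 0.0304% in LHP tumors.

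Of 14 hepatocyte markers 8 rose in S7HP tumors and 4 in S7HP+Snail tumors, both against LHP tumors, where 9.47% and 3.35% of all genes tested rose. Their share was 1.79% to 2.57% in S7HP+Snail tumors, 2.20% to 5.05% in S7HP tumors and 0.653% to 1.08% in LHP tumors, and the albumin gene Alb rose by 2.72 ± 0.52 in S7HP tumors (adjusted p = 0.00821). None was called between S7HP+Snail and S7HP tumors by limma, where 5 were lower at an unadjusted p under 0.05. Such a p was held by 2533 of the 14215 genes tested, in either direction. Of 10 cholangiocyte markers 4 rose and 1, Sox9, fell in S7HP tumors against LHP tumors, where 9.47% of all genes tested rose and 9.54% fell. Tspan8 (3.86 ± 0.59, adjusted p = 0.00702) and Prom1 (5.41 ± 0.84, adjusted p = 0.00763) also rose in S7HP+Snail tumors against LHP tumors, where 3.35% of all genes tested rose. In that comparison the Sox9 difference was -1.59 ± 0.45 and was not called (limma, adjusted p = 0.0618). None of the 10 was called between S7HP+Snail and S7HP tumors by limma, where 2 were lower at an unadjusted p under 0.05, beside the same 2533 of 14215 genes. The cholangiocyte share was 0.794%, 0.189% and 1.86% in S7HP+Snail tumors 13, 14 and 15, so that tumor 14 alone set the low end of this group. It was 0.447% to 0.970% in S7HP tumors and 0.499% to 0.932% in LHP tumors. No marker of these lists was at 0 in all tumors of a group, and their part in the collagen differences was not tested.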

How the data were processed

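The study measured gene expression in 9 mouse liver tumors by QuantSeq 3′ sequencing, from 500 ng of total RNA taken with Trizol, per the labels' protocols. The authors used Bowtie2, edgeR and mm10, per the submitters' processing notes, which give no versions or roles. The deposited log2 values are, as the values show, log2 of a quantile-normalized count plus 1 for each symbol. No source used here gives the total count of each library, the counting tool or its strand setting.

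The filter on low values kept the 14215 genes that reached 4 on the log2 scale in 3 or more libraries. All 9 libraries were fitted with limma 3.58.1 in R 4.3.3 (lmFit, then eBayes with trend and robust variances, 6 residual degrees of freedom). Tests were two-sided, and calls needed a Benjamini-Hochberg adjusted p below 0.05 over all genes tested. Differences are of mean log2(normalized count + 1) and understate those of low genes. Errors are SE from limma or SD over 3 tumors. The fit was tested on simulated data. Alternatives were another filter, scaling, pseudocount, variance model and choice of libraries, and each tumor left out in turn, in which case its group's remaining 2 tumors were assumed to vary like the others.

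All 44 collagens matched 1 gene of GENCODE mouse release M21 (GRCm38), the source of coordinates, and promoter sequences came from RefSeq (GRCm38.p6). Named genes were all collagens, with values by tumor for those with the largest called change of each class and those called with Snail, and up to 4 called members of each list by adjusted p. Values by tumor for other collagens were added after their values were seen. Collagen members, lists and tests were chosen with earlier results of these data known. Summed shares are of unlogged normalized counts. No interval for counting error can be given, since library depth is unknown.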

Additional observations from a re-analysis of the deposited data

How the results depend on the processing

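No paired analysis was possible because the groups compared share no replicate numbers. Over 15 alternatives per comparison, 14 of the 20 collagen calls in S7HP against LHP tumors, 2 of 3 in S7HP+Snail against S7HP tumors and 4 of 8 lower plus 1 of 1 higher in S7HP+Snail against LHP tumors were kept under each alternative, Col9a1, whose calls its entry to the test fixed, being among the kept calls of the last 2 comparisons. Leaving out one tumor gave 14 to 22, 3 to 6, 4 to 9 and 1 to 1 of these calls. Over all genes, the same step gave 746 to 1531 higher and 702 to 1632 lower in S7HP against LHP tumors (1346 and 1356 with all 9), 36 to 214 and 27 to 237 in S7HP+Snail against S7HP tumors (143 and 184), and 150 to 493 and 138 to 556 in S7HP+Snail against LHP tumors (476 and 550). With only the 6 libraries compared, 50 genes were higher and 70 lower in S7HP+Snail against S7HP tumors, and 303 were higher in S7HP+Snail against LHP tumors. In the latter comparison 2 collagens were higher without the filter, Col9a1 and Col28a1, both at 0 in all LHP tumors. The causes were not tested.

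Uncalled differences of 11 collagens changed sign, and each is given with its range over the tumors left out. In S7HP against LHP tumors, Col6a5 (-0.81 to 0.54) was 0.54 without LHP tumor 3 and 0.02 without S7HP tumor 9. In S7HP+Snail against S7HP tumors, Col5a2 (-1.02 to 0.38) was 0.38 without S7HP+Snail tumor 14, and without tumor 13 Col15a1 (-0.75 to 0.63), Col1a2 (-0.30 to 0.59) and Col6a3 (-0.055 to 0.94) were at the low end. Without S7HP tumor 11, Col15a1, Col1a2 and Col8a1 (-0.32 to 0.67) were -0.23, -0.05 and -0.32. Without S7HP tumor 12, Col14a1 (-0.12 to 0.57) and Col9a3 (-0.63 to 1.72) were at the low end, and with pseudocount 16 Col9a3 was -0.0072. In S7HP+Snail against LHP tumors, Col18a1 (-0.26 to 0.82) was -0.0062 without LHP tumor 6, -0.26 without S7HP+Snail tumor 14 and -0.02 without tumor 15. Col23a1 (-3.59 to 0.17) was 0.17 without tumor 15, and Col4a6 (-0.35 to 1.88) was -0.0056 without LHP tumor 3 and -0.35 without S7HP+Snail tumor 14.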
